A study of Mus musculus with 12 samples.

Results

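Spinal cord of mice with constitutively active β-catenin in the Olig2 lineage was compared with that of wild-type littermates at day 4. Both groups were chosen by genotype and day alone, and they hold 6 of the 12 arrays of the study, 3 for Olig2cre/DA-Cat and 3 for wild type. The other 6 arrays, 3 of each genotype, are from day 15. Total RNA was measured on Affymetrix 3′ arrays, and 18194 genes were tested, each through its brightest probe set, judged by the mean of all 12 arrays.

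Mice labelled Olig2cre/DA-Cat, called DA-Cat mice from here on, carry Cre recombinase driven by Olig2, a transcription factor of motor neuron and oligodendrocyte progenitors, together with DA-Cat, a dominant-active β-catenin. Wild-type mice carried neither, and no group with Cre alone was part of the comparison, so effects of Cre and of DA-Cat cannot be told apart. The labels give day 4 as a developmental stage. The protocol attached to the same samples describes lesions made with 1% lysolecithin in the ventrolateral white matter of mice aged 8 to 10 weeks and tissue taken unlesioned or 14 days after the lesion, so the age of the animals, and whether the tissue was lesioned, is not settled by the labels. The labels call the samples biological replicates and do not say how many animals gave each one. If they do not stem from separate animals, the p-values measure only the spread between these samples.

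Canonical Wnt signalling stabilises β-catenin, which enters the nucleus and joins TCF and LEF factors on target genes. Many of those targets, such as Axin2, Notum and Nkd1, feed back to restrain the pathway. Oligodendrocytes arise from Pdgfra-expressing precursors, pass through a short-lived newly formed stage marked by Bcas1, Enpp6 and Gpr17, and then switch on the proteins and lipids of myelin under control of Myrf and Sox10. The aim, as the study's title words it, concerns Wnt dysregulation and the timing of myelination. Because the tissue was measured in bulk, fewer cells of a type and less RNA per cell cannot be told apart.

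Values are log2 signals. Array medians lay between 6.14 and 6.19 on the 12 arrays, while the median of 15 control probe sets for bacterial genes was 3.07. A group mean under 5 was read as limited by background. Arrays correlated at 0.996 to 0.998 within the day 4 groups and at 0.992 to 0.996 between them. The first principal component of the 6 arrays held 49.3% of the variance and separated the genotypes, with scores of -18.47, -10.93 and -12.25 in wild type and of 8.09, 17.60 and 15.97 in DA-Cat mice. Replicate 2 of DA-Cat mice stood apart in Xist, the RNA of the inactive X chromosome, at 5.49 against 11.60 to 12.33 on the other 5 arrays. The Y-linked Eif2s3y lay between 6.65 and 8.56 on the 6 arrays and was highest on that array. The source label names ventrolateral white matter, but neuronal cell body genes were bright on all 6 arrays, where the mean level of 23 neuron markers was 11.58 to 11.72. Ctnnb1, the gene of β-catenin, was at 13.27 ± 0.15 in wild type and 13.22 ± 0.01 in DA-Cat mice (SD, n = 3). A 3′ probe set does not tell an activated β-catenin transcript from the normal one, so this level does not check the genotype.

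At day 4 most myelin transcripts fell and several Wnt feedback inhibitors rose. In limma with Benjamini-Hochberg adjustment, 567 genes were called at an adjusted p below 0.05, which is 3.12% of the genes tested. Of these, 237 were higher in DA-Cat mice (1.30%) and 330 lower (1.81%). Falls were larger than rises: the median size was 0.58 log2 among the lower genes and 0.35 log2 among the higher ones. Of the 82 called genes that differed at least 2-fold (0.451%), 72 were lower and 10 higher. Over all genes the median difference was 0.03, and for 5296 genes (29.1%) the 3 values of one genotype did not overlap those of the other. The number of calls depended on single arrays. It was 260 without replicate 1 of wild type (54 higher, 206 lower), 306 without replicate 2 of wild type (59 higher, 247 lower), 260 without replicate 2 of DA-Cat mice (57 higher, 203 lower) and 261 without replicate 3 of DA-Cat mice (52 higher, 209 lower). The split also moved with scaling, to 129 higher and 385 lower after quantile normalization and to 117 higher and 398 lower with arrays centred on their medians. In other alternatives higher calls outnumbered lower ones: 349 to 322 without replicate 3 of wild type, 437 to 407 with trend and robust eBayes, 464 to 389 without the dimmest 30% of genes, 618 to 391 without the dimmest 50% and 1327 to 837 with array weights. Which direction held more calls was thus not settled.

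**Figure D1:**
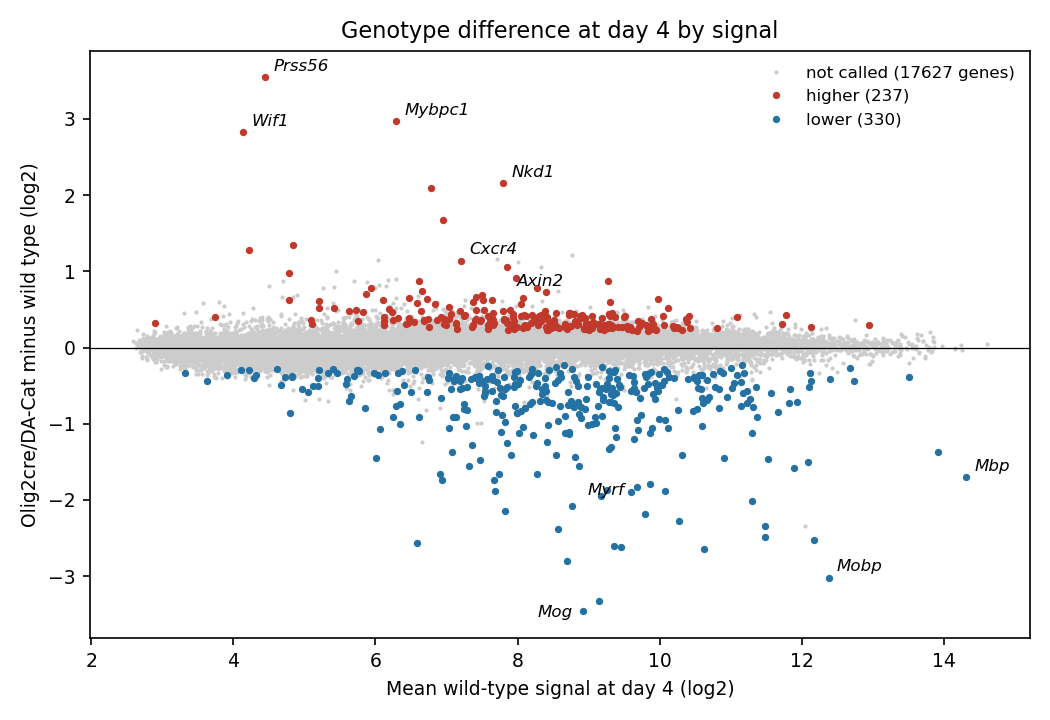
Difference in log2 signal between Olig2cre/DA-Cat and wild type at day 4 (vertical axis) against the mean wild-type signal (horizontal axis, log2), 1 point per gene. Of the 18194 genes, 237 were called higher (red) and 330 lower (blue), and the lower genes reach down to -3.46 while most of the higher ones lie close to the uncalled genes in grey.

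Myelin proteins formed the group with the largest share of calls among the 36 gene lists. Of 36 measured members of the central myelin list, 29 fell and 0 rose (80.6% called, against 3.12% over all genes). All 36 differences were negative, against 7623 of 18194 over all genes. Their median was -1.26 against 0.03 over all genes. The mean level of the list was 9.83, 9.69 and 9.94 in the 3 wild-type arrays and 8.36, 8.34 and 8.25 in the 3 DA-Cat arrays. The groups did not overlap. In every alternative tried, between 27 and 29 members were lower and 0 were higher.

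Mog, an immunoglobulin-like protein on the outermost myelin surface, had the lowest difference of all genes called. It was at 9.0, 8.77 and 9.01 in wild type and at 5.80, 5.51 and 5.10 in DA-Cat mice. That is a difference of -3.46 ± 0.16 (SE), an 11-fold lower signal (adjusted p = 9.6e-08). Ermn, which codes for a cytoskeletal protein of oligodendrocytes, was at 9.11, 8.94 and 9.40 in wild type and at 6.0, 5.76 and 5.68 in DA-Cat mice, a difference of -3.33 ± 0.14 (SE). Both genes were well over the array median in every wild-type array and below it in every DA-Cat array.

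Mobp, a small basic protein of compact myelin, had the smallest p of all genes. Its level was 12.38, 12.30 and 12.46 in wild type and 9.48, 9.36 and 9.24 in DA-Cat mice, which is -3.02 ± 0.08 (SE, adjusted p = 2.53e-09). The 5 probe sets of Mobp ranged from -3.12 to -0.86, all called lower, and their mean gave -2.59. Mag, an adhesion molecule of the myelin layer that faces the axon, was at 11.50, 11.36 and 11.59 against 8.90, 9.0 and 9.09, a difference of -2.48 ± 0.11 (SE, adjusted p = 9.6e-08). Unlike Mog, these transcripts stayed well over the array median in DA-Cat mice.

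Mbp, the protein that compacts the myelin membrane, was the brightest gene of the list. It was at 14.40, 14.25 and 14.27 in wild type and at 12.67, 12.66 and 12.50 in DA-Cat mice, a difference of -1.70 ± 0.06 (SE, adjusted p = 3.53e-08). The wild-type values lie near the array maxima of 14.71 to 15.05. The 8 probe sets of Mbp gave differences from -2.58 to -0.02, so its size depends on the probe set read.

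Other myelin genes fell by similar amounts. The largest of these differences were -2.80 for Tmem88b, then the tight junction protein Cldn11 at -2.64, the metalloproteinase Adamts4 at -2.61, Nipal4 at -2.56, Ugt8a, which is described with the lipid enzymes, at -2.53, and Mal, a proteolipid of myelin membranes, at -2.35. Nipal4 ended at a mean of 4.03, in the range limited by background, and its difference was -1.37 on the mean of its 2 probe sets. Ppp1r14a, an inhibitor of myosin phosphatase, was at -2.15, and Hapln2, a link protein of the matrix around nodes of Ranvier, at -1.74. Of the gap junction genes, Gjb1 differed by -1.11 and Gjc3 by -0.82, or -0.44 on the mean of its 2 probe sets. The 7 members that were not called, which are named here after their values were seen, were Aspa at -0.36, Car2 at -0.22, Cryab at -0.22, Cd9 at -0.19, Ndrg1 at -0.13, Qdpr at -0.09 and Pmp22 at -0.05.

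**Figure D2:**
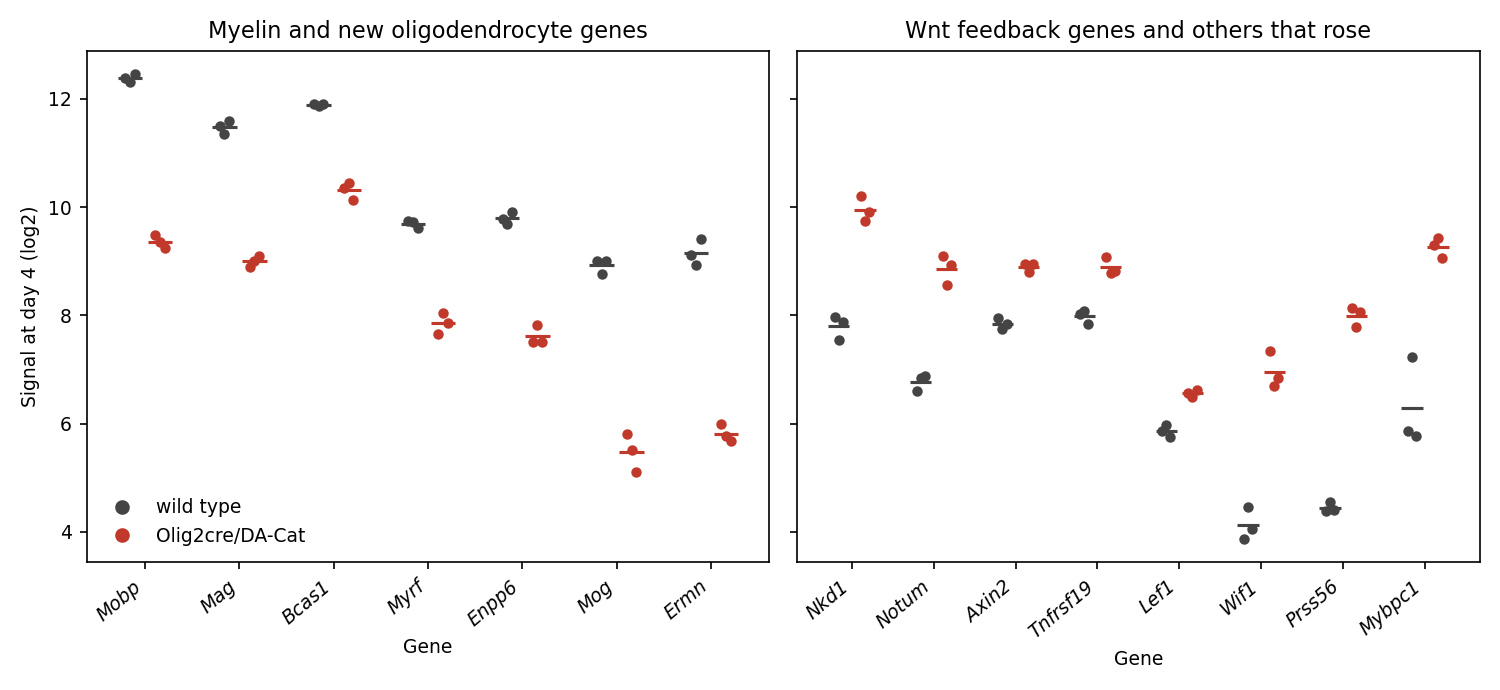
Log2 signal of single genes on the 6 day 4 arrays (points) with the mean of each genotype (short lines), wild type in grey and Olig2cre/DA-Cat in red. Mog fell from a mean of 8.93 to 5.47 and Mobp from 12.38 to 9.36, and Nkd1 rose from 7.80 to 9.95 and Prss56 from 4.45 to 7.99. The points of the genotypes do not overlap for any gene shown, as for 29.1% of all genes. Most genes shown meet a naming rule that required it.

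Regulatory motifs were looked for in promoters, and the promoters of Mag and Mog are shown because they are strongly lowered myelin genes whose window holds the motif of Myrf. RefSeq promoters of GRCm38.p6 run from 250 bases before to 50 bases after an annotated start. Of the 29 myelin genes that fell, 24 had an entry, with 36 promoters. The Myrf motif, searched as CTGGCAC or CTGGTAC on both strands, occurred in 7 of the 36 (19.4%), and in 2331 of all 32851 mouse promoters of this length (7.10%). These 7 belong to Cnp, Hapln2, Mag, Mog, Nipal4 and Opalin, and 2 of them are overlapping starts of Mag. A match is a description of the letters and does not show that Myrf binds there. The Mag window is chr7:30914814-30915113 on the minus strand, with the match in capitals beginning at -68 from the start. The Mog window is chr17:37023349-37023648 on the minus strand, with the match, on the opposite strand, beginning at -83. Both are written 5′ to 3′ in the direction of the gene.
Mag: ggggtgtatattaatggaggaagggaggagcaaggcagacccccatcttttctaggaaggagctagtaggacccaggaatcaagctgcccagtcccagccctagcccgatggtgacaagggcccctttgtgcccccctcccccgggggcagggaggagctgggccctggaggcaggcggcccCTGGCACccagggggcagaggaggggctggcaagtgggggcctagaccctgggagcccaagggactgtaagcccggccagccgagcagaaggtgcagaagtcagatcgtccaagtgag
Mog: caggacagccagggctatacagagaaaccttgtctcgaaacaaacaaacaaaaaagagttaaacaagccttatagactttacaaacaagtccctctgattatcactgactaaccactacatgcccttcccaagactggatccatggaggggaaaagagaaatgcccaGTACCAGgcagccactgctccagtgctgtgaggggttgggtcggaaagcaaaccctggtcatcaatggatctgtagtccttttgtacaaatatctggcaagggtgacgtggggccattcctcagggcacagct

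Myelin lipid synthesis fell in part. Of 30 genes of fatty acid and sphingolipid synthesis, 11 fell and 1 rose (40% called, against 3.12% over all genes, median -0.13). Ugt8a, which makes galactocerebroside, was at 12.29, 12.05 and 12.16 in wild type and at 9.67, 9.82 and 9.43 in DA-Cat mice, which is -2.53 ± 0.12 (SE, adjusted p = 9.6e-08). Fa2h, which hydroxylates the fatty acids of myelin lipids, was at 10.31, 10.11 and 10.37 against 7.98, 8.03 and 7.97, which is -2.27 ± 0.08 (SE, adjusted p = 2.92e-08). The genotypes did not overlap for either enzyme, which the naming rule for the lowest differences required. The elongase Elovl7 was at -1.95 and the glycolipid transfer protein Gltp at -1.45. Fabp5, a fatty acid binding protein and the brightest of the list, was at -0.11 (adjusted p = 0.48). The 1 riser, named after its value was seen, was the ceramide synthase Cers4 at 0.25, which lost its call without replicates 1 or 2 of wild type or replicates 2 or 3 of DA-Cat mice.

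Cholesterol synthesis genes moved less. Of 20 measured, 6 fell and 0 rose (30% called, against 3.12% over all genes), with a median of -0.26. Lss, which closes the sterol rings, differed by -0.67 ± 0.13 (SE, adjusted p = 0.0133) and Sc5d, a late desaturase, by -0.53 ± 0.07 (SE, adjusted p = 0.000782). Hmgcs1, an early enzyme of the pathway, was at 13.58, 13.48 and 13.49 in wild type and at 13.07, 13.13 and 13.19 in DA-Cat mice, a difference of -0.39. Idi1, which makes the isoprenoid building block of sterols, was at -0.60. The count of 6 rested on single arrays. It was 2 without replicate 1 of wild type, 3 without replicate 1 of DA-Cat mice, 1 without replicate 2 of DA-Cat mice and 2 without replicate 3 of DA-Cat mice. Sc5d kept its call with any array left out, although the mean of its 3 probe sets gave an adjusted p of 0.0504. The others named lost theirs with 2 or more of the 6 arrays left out in turn. These were replicate 1 of wild type and replicate 2 of DA-Cat mice for Hmgcs1, replicates 2 and 3 of DA-Cat mice for Lss, and replicate 1 of wild type and each DA-Cat array for Idi1 (adjusted p 0.0508 to 0.0921 where lost).

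Of 16 iron and transport genes used by oligodendrocytes, 4 fell (25%, against 1.81% called lower over all genes). All 16 differences were negative (median -0.37), against 7623 of 18194 over all genes. Pllp, a myelin proteolipid, was at 9.77, 9.73 and 10.10 in wild type and at 8.16, 8.13 and 7.93 in DA-Cat mice, which is -1.79 ± 0.12 (SE, adjusted p = 4.02e-06). The choline transporter Slc44a1 differed by -1.09, the chloride cotransporter Slc12a2 by -0.79 and the receptor Gpr62 by -1.37. On the mean of their probe sets Slc44a1 differed by -0.53 and Gpr62 by -0.74. Ferritin heavy chain, Fth1, was the brightest and differed by -0.07 (adjusted p = 0.538).

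Newly formed oligodendrocyte genes also fell. Of 25 measured, 18 fell and 0 rose (72% called, against 3.12% over all genes, median -0.75), and 14 to 16 fell with 1 array left out. Their mean level was 9.09, 9.11 and 9.20 in wild type and 8.11, 8.22 and 8.12 in DA-Cat mice. Enpp6, a choline phosphodiesterase that marks the start of differentiation, was at 9.78, 9.69 and 9.91 against 7.50, 7.82 and 7.51. This is -2.18 ± 0.14 (SE, adjusted p = 2.91e-06), a 4.55-fold lower signal. Bcas1, a marker of early myelinating cells, was at 11.90, 11.86 and 11.91 against 10.36, 10.44 and 10.13, a difference of -1.58 ± 0.09 (SE, adjusted p = 6.81e-07). The 3 probe sets of Bcas1 ranged from -1.58 to -0.15, and their mean gave -0.68. Cnksr3 was at -1.89 and the deacetylase Sirt2 at -1.50.

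Precursor genes mostly fell where called. Of 25 measured, 7 fell and 1 rose (32% called, against 3.12% over all genes), with a median of -0.17. The fallers Olig1, Olig2 and Sox10 are also counted with the transcription factors of the lineage. Gpr17, a receptor of committed precursors on this list, also marks the newly formed stage. It was at 10.37, 10.29 and 10.28 in wild type and at 8.63, 9.13 and 8.94 in DA-Cat mice, which is -1.41 ± 0.18 (SE, adjusted p = 0.000681). Tenascin-R, Tnr, differed by -0.92 ± 0.08 (SE, adjusted p = 2.02e-05). Pdgfra, the growth factor receptor that defines precursors, was at 10.64, 10.65 and 10.59 against 10.42, 10.33 and 10.38. These values did not overlap, but the difference of -0.24 ± 0.09 was not called (SE, adjusted p = 0.138). Matrilin 4, Matn4, was the riser at 0.78 ± 0.15 (SE, adjusted p = 0.0185), and its adjusted p was 0.0587 to 0.0825 without replicate 1 or 2 of wild type or replicate 1 or 3 of DA-Cat mice.

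Transcription factors of the lineage mostly fell where called. Of 26, 7 fell and 1 rose (30.8% called, against 3.12% over all genes, median -0.18), and without replicate 2 of wild type 4 fell. Myrf, which drives myelin genes, was at 9.74, 9.72 and 9.60 in wild type and at 7.65, 8.05 and 7.87 in DA-Cat mice, which is -1.83 ± 0.14 (SE, adjusted p = 8.85e-06). Sox10, needed for terminal differentiation, was at 9.81, 9.93 and 9.95 against 8.82, 8.91 and 8.79, or -1.06 ± 0.13 (SE, adjusted p = 0.000448). Both genes were lower on every DA-Cat array than on any wild-type array, and 29.1% of all genes did not overlap. Olig2 was at 9.20, 9.17 and 9.22 against 8.22, 8.36 and 8.30, a difference of -0.90 ± 0.10 (SE, adjusted p = 0.000171). Commonly used Olig2cre lines carry Cre in the Olig2 gene itself, which the labels do not state for these mice, so an effect of the Cre allele on Olig2 cannot be told apart from an effect of DA-Cat. Olig1, the related factor next to it, was at -0.44 ± 0.08 (SE, adjusted p = 0.0111, and 0.0549 or 0.0626 without replicate 2 of wild type or of DA-Cat mice). Nkx6-2 was at -0.63. The riser was Nkx6-1, a factor of ventral progenitors, at 0.74 ± 0.13 (SE, adjusted p = 0.00824).

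At the node of Ranvier and the flanking paranodes, 7 of 26 genes fell and 0 rose (26.9% called, against 3.12% over all genes, median -0.05). Those with the smallest p are made by oligodendrocytes at least in part: besides Mag, Hapln2 and Sirt2 these included Nfasc, the cell adhesion molecule neurofascin, at 11.53, 11.45 and 11.59 in wild type and at 10.15, 9.98 and 10.05 in DA-Cat mice, which is -1.46 ± 0.11 (SE, adjusted p = 6.86e-06), or -0.97 on the mean of its 3 probe sets. Contactin 1, Cntn1, the brightest member and an axonal protein, was at -0.08 (adjusted p = 0.516). Its 3 probe sets ranged from -0.68 to -0.08, and their mean gave -0.31 and was called (adjusted p = 0.0223).

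Inhibitors of Wnt signalling were among the genes that rose most. Of 26 measured Wnt feedback and target genes, 9 rose and 2 fell (42.3% called, against 3.12% over all genes), with a median of 0.19. Wif1, which binds Wnt ligands outside the cell, was at 3.87, 4.47 and 4.06 in wild type and at 7.35, 6.69 and 6.84 in DA-Cat mice, a difference of 2.83 ± 0.18 (SE, adjusted p = 1.73e-06). Its wild-type level lies in the range limited by background. Nkd1, which restrains Dishevelled, was at 7.97, 7.55 and 7.88 against 10.20, 9.74 and 9.91, or 2.15 ± 0.14 (SE, adjusted p = 2.69e-06). Its 4 probe sets gave 0.41 to 2.15, with 1.42 for their mean.

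Notum, an enzyme that strips the lipid from Wnt ligands, was at 6.61, 6.84 and 6.88 in wild type and at 9.10, 8.56 and 8.94 in DA-Cat mice. The difference was 2.09 ± 0.15 (SE, adjusted p = 4.22e-06). Axin2, a scaffold of the complex that destroys β-catenin, was at 7.95, 7.75 and 7.83 against 8.94, 8.80 and 8.95, or 1.05 ± 0.08 (SE, adjusted p = 1.16e-05), a 2.07-fold higher signal on this probe set. Its 2 probe sets gave 0.53 and 1.05, both called, with 0.79 for their mean. All 3 values of Notum and of Axin2 in DA-Cat mice exceeded all those in wild type. The naming rule for the highest differences, which both meet, required this, and 29.1% of all genes did not overlap.

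Lef1, the nuclear partner of β-catenin, was at 5.87, 5.98 and 5.75 in wild type and at 6.57, 6.48 and 6.63 in DA-Cat mice, which is 0.70 ± 0.07 (SE, adjusted p = 0.000137). Sp5, a transcription factor and direct Wnt target, differed by 1.35 ± 0.14 (SE, adjusted p = 0.00011) and Rnf43, a ligase that removes Wnt receptors, by 1.28 ± 0.21 (SE, adjusted p = 0.00561). Both started from wild-type means under 5. Tnfrsf19, a receptor induced by Wnt signalling, was at 0.91 ± 0.10 (SE, adjusted p = 0.000353), with its 3 probe sets between -0.03 and 1.05. Apcdd1, a membrane inhibitor of Wnt, was at 0.63 ± 0.14 (SE, adjusted p = 0.0319), and whichever of the 6 arrays was left out its call was lost (adjusted p 0.0605 to 0.124).

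Not all genes often called Wnt targets moved. Id2, an inhibitor of differentiation and the brightest of the list, was at 10.38, 10.41 and 10.63 in wild type and at 10.53, 10.48 and 10.42 in DA-Cat mice, a difference of 0.01 ± 0.10 (SE, adjusted p = 0.975). The genotypes overlapped. The fallers were Bmp4, a growth factor also made by newly formed oligodendrocytes, at -0.73 ± 0.15 (SE, adjusted p = 0.0255), and cyclin D1, Ccnd1, at -0.54, which is named after its value was seen. The call of Bmp4 held without replicate 1 of wild type and was lost without any of the other 5 arrays (adjusted p 0.0581 to 0.0864). Of the pair, 1 fell without any single wild-type array or replicate 1 of DA-Cat mice, and 0 fell without replicate 2 or 3 of DA-Cat mice.

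The promoters of Sp5 and Tnfrsf19 are shown because they are the risers whose window holds a TCF/LEF motif. The motif was searched as CTTTGAT or CTTTGAA on both strands, and none of the 4 windows printed holds both motifs. Of the 9 Wnt feedback genes that rose, 7 had a promoter entry, with 12 promoters, of which 2 held it (16.7%), against 2842 of all 32851 promoters (8.65%). Among the 36 promoters of lowered myelin genes it occurred in 2 (5.56%). A window without a match says only that these letters are not in it. The Sp5 window is chr2:70474673-70474972 on the plus strand, with the match beginning at -104. The Tnfrsf19 window is chr14:61037938-61038237 on the minus strand, with the match, on the opposite strand, beginning at -202.
Sp5: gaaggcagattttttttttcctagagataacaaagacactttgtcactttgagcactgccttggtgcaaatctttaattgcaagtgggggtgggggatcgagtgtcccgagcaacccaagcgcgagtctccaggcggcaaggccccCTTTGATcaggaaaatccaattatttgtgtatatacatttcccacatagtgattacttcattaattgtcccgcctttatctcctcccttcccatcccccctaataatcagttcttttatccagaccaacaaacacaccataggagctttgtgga
Tnfrsf19: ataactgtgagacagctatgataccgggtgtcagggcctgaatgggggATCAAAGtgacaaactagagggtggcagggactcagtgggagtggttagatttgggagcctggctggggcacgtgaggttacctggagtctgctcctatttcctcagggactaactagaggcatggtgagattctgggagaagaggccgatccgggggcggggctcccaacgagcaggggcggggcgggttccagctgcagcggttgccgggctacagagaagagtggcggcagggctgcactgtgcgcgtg

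Most ligands, receptors and transducers of the Wnt pathway were not called. Of 64 measured, 4 rose and 1 fell, which is 7.81% called against 3.12% over all genes. The median was 0.07 against 0.03 over all genes. Lgr6, a receptor for R-spondins, differed by 0.62 ± 0.11 (SE, adjusted p = 0.00941), the ligand Rspo3 by 0.39 ± 0.07 (SE, adjusted p = 0.00966) and the Frizzled receptor Fzd1 by 0.39 ± 0.08 (SE, adjusted p = 0.0242). The count of risers was 1 without replicate 1 of wild type, 2 without replicate 2 and 0 without replicate 3 of DA-Cat mice. The calls of Lgr6 and Rspo3 were lost without replicate 1 of wild type or replicate 3 of DA-Cat mice, and that of Fzd1 without replicate 1 or 3 of wild type or replicate 2 or 3 of DA-Cat mice (adjusted p 0.0524 to 0.114). On the mean of its 2 probe sets each of these genes was smaller, Lgr6 at 0.28 (adjusted p = 0.0936), Rspo3 at 0.20 (adjusted p = 0.0952) and Fzd1 at 0.26 (adjusted p = 0.0334). Tcf7l2, a TCF factor that is also a marker of newly formed oligodendrocytes, was at 7.07, 7.29 and 7.37 in wild type and at 6.50 on all 3 DA-Cat arrays. It differed by -0.75 ± 0.14 (SE, adjusted p = 0.0124), and its adjusted p was 0.0508 to 0.0539 without replicate 2 of wild type or replicate 2 or 3 of DA-Cat mice.

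Other pathways that act on the lineage held few calls each. In the BMP and Hedgehog lists the share called still exceeded the 3.12% over all genes. Of 29 BMP and Id genes, 1 rose and 2 fell (10.3%): the transducer Smad5 was at 0.41 ± 0.06 (SE, adjusted p = 0.0023) but at 0.24 on the mean of its 3 probe sets (adjusted p = 0.0641), the inhibitory Smad7 at -0.48 ± 0.08 (SE, adjusted p = 0.00824), and Bmp4 is given above. The count of fallers was 1 without any single array other than replicate 1 of wild type. Of 25 Notch genes 0 were called in limma (4 at an unadjusted p below 0.05), the smallest adjusted p being 0.0571 for Hes6 at 0.30. Of 17 Hedgehog genes, 3 rose and 0 fell, which is 17.6% against 1.30% called higher over all genes. Gli1, a transcription factor and readout of Hedgehog signalling, was at 5.88, 5.86 and 5.73 in wild type and at 6.25, 6.30 and 6.34 in DA-Cat mice, which is 0.47 ± 0.06 (SE, adjusted p = 0.00127). Ptch1, another readout and the brightest of the list, was at 10.54 in both genotypes (adjusted p = 0.989). Hhip, a further member, was not called and went the other way. Its 4 probe sets ranged from -0.54 to -0.31, 1 of them called lower, and their mean gave -0.40 (adjusted p = 0.0534). Without the dimmest 50% of genes, 0 of 7 Hedgehog genes rose and 1 fell. Foxa2, a floor plate factor, was at 0.31 (adjusted p = 0.0468), and its call was lost without any array except replicate 3 of wild type (adjusted p 0.0885 to 0.18). Of 39 cell cycle genes 0 were called in limma (6 at an unadjusted p below 0.05), with a median of 0.11. Tpx2, a spindle protein, had the smallest p at -0.29 (adjusted p = 0.138), and Pcna, a clamp of DNA replication, was at 0.11.

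**Figure D3:**
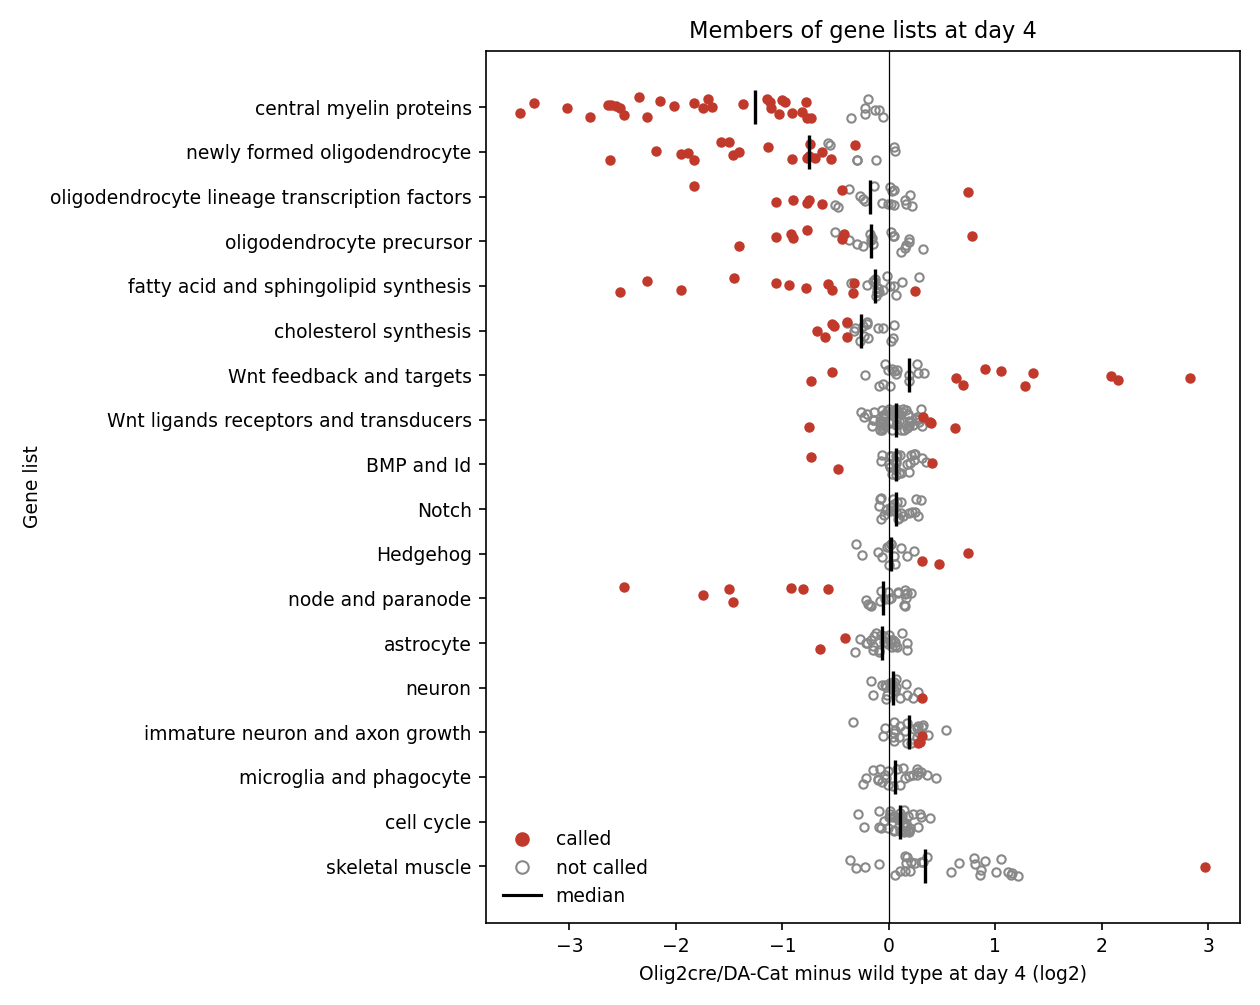
Differences in log2 signal at day 4 of the members of 18 gene lists, 1 point per gene, filled red where called, with the list median as a black line. The medians run from -1.26 for central myelin proteins to 0.34 for skeletal muscle, where 1 of 30 genes was called.

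The largest rises included genes on none of the lists. Prss56, a trypsin-like serine protease, had the highest measured difference, from 4.39, 4.55 and 4.40 in wild type to 8.14, 7.78 and 8.06 in DA-Cat mice. The difference was 3.54 ± 0.17 (SE, adjusted p = 1.36e-07). The wild-type values lie in the range limited by background, so no fold is given and its rank is not fixed. Esyt3, a protein that tethers the endoplasmic reticulum to the plasma membrane, was at 6.80, 6.94 and 7.13 against 8.85, 8.46 and 8.60, or 1.68 ± 0.12 (SE, adjusted p = 3.98e-06). Cxcr4, a chemokine receptor, was at 7.23, 7.09 and 7.28 against 8.42, 8.23 and 8.37, or 1.14 ± 0.11 (SE, adjusted p = 7.2e-05). Ackr3, the other receptor for the same chemokine, differed by 0.62. The chromatin protein Hmga2 was at 0.69, the signalling scaffold Wwc1 at 0.60, the mitochondrial phospholipase Pld6 at 0.63, the extracellular protein Svep1 at 0.48, the protocadherin-like Fat4 at 0.43, the peptidase Nln at 0.40 and the actin-binding drebrin, Dbn1, at 0.37. On the mean of probe sets Wwc1 was at 0.32, and Fat4 was not called (adjusted p = 0.0829).

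The aldehyde dehydrogenases Aldh1a1 and Aldh1a7 differed by 0.88 and 0.63. Aldh1a1 was at 9.07, 9.46 and 9.29 in wild type and at 10.37, 9.98 and 10.09 in DA-Cat mice, and its adjusted p was 0.0501 without replicate 1 of wild type. The glycogen-targeting subunit Ppp1r3b was at 0.78, with an adjusted p of 0.0524 without replicate 3 of DA-Cat mice. Reg3b, a secreted lectin, was at 0.87 (adjusted p = 0.0383), and its call held with replicate 1 of DA-Cat mice left out and with none of the other 5 (adjusted p 0.0551 to 0.133).

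Mybpc1, a myosin-binding protein of slow muscle, was at 5.87, 7.23 and 5.77 in wild type and at 9.31, 9.43 and 9.06 in DA-Cat mice, which is 2.97 ± 0.49 (SE, adjusted p = 0.0056). It was the sole called member of 30 skeletal muscle genes (3.33%, against 3.12% over all genes). Of the 30, 26 had positive differences, against 10571 of 18194 over all genes. The mean level of that list was 5.55, 7.22 and 6.04 in wild type and 5.74, 7.84 and 6.90 in DA-Cat mice, so the genotypes overlapped and the replicates of each spread widely. The list median of 0.34 was 0.01 without replicate 2 of DA-Cat mice, 0.13 without replicate 1 of wild type, 0.88 without replicate 2 of wild type and 0.88 without replicate 1 of DA-Cat mice. On replicate 1 of DA-Cat mice, Mybpc1 was at 9.31 while the list stood at 5.74. With the mean level of the list as a covariate the difference of Mybpc1 was 2.71 and was called. That mean includes Mybpc1 itself, and the part of muscle tissue in its difference was not tested.

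Genes on none of the lists that fell included many of known oligodendrocyte or myelin expression. Cdk18, a cyclin-dependent kinase, was at 7.28, 7.32 and 7.36 in wild type and at 5.88, 5.75 and 5.67 in DA-Cat mice, or -1.55 ± 0.06 (SE, adjusted p = 4.07e-08). Sema4d, a semaphorin of oligodendrocytes, differed by -1.90, the lysophosphatidic acid receptor Lpar1 by -1.30 and the long noncoding Sox2ot by -1.41. The membrane protein Tmem125 was at -2.38, the scaffold Pdlim2 at -2.08, Mob3b at -1.66, the kinase Srpk3 at -1.43, the elongation factor Ell2 at -1.42, the transporter Slc45a3 at -1.28, Ypel2 at -1.20 and the focal adhesion protein Tns3 at -0.77. Each was lower on all 3 DA-Cat arrays than on any wild-type array, which the naming rule required. The 4 probe sets of Srpk3 ranged from -1.43 to 0.14. On the mean of probe sets Srpk3 was at -0.82, Tmem125 at -1.56, Sema4d at -1.01, Ell2 at -0.83, Mob3b at -1.10 and Ypel2 at -0.87.

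Lists of other cell types held few calls each, and their shares are given beside the 3.12% called over all genes. Of 28 astrocyte genes 2 fell (7.14%). These were S100b, which oligodendrocytes also express, at -0.64 ± 0.11 (SE, adjusted p = 0.00601), and Gfap, the intermediate filament of astrocytes, at -0.41 ± 0.10 (SE, adjusted p = 0.0418). Gfap was at 12.42, 12.39 and 12.39 in wild type and at 12.16, 11.90 and 11.91 in DA-Cat mice. Its call held without replicate 1 of DA-Cat mice and was lost without any of the other 5 arrays (adjusted p 0.0663 to 0.162) or on the mean of its probe sets (adjusted p = 0.0644). No call was made in limma among microglia and phagocyte genes (0 of 24, 7 at an unadjusted p below 0.05), ependymal genes (0 of 24, 10 unadjusted), respiratory chain genes (0 of 41, 2 unadjusted) or red blood cell genes (0 of 9, 1 unadjusted). The same held for synaptic genes (0 of 26, 9 unadjusted), interferon response genes (0 of 19, 4 unadjusted), stress response genes (0 of 21, 3 unadjusted) and cartilage and bone genes (0 of 18, 2 unadjusted). Over all genes 3746 of 18194 had an unadjusted p below 0.05. In the Schwann cell list 2 of 16 fell (12.5%), Sox10 and the neuregulin receptor Erbb3 at -1.03 (-0.57 on the mean of its 2 probe sets), both also made by oligodendrocytes.

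Of 23 neuron genes 1 rose and 0 fell (4.35%). Of 26 immature neuron and axon growth genes 3 rose and 0 fell (11.5%), with 23 positive differences and a median of 0.19. Over all genes 1.30% were called higher, and 10571 of 18194 differences were positive. The risers were Tubb3, neuronal tubulin, at 0.31, Gap43, a growth cone protein, at 0.27 and Dpysl3, a growth cone regulator, at 0.30. The count depended on the setting. It was 0 with centred arrays and with the replicate block, 13 of 26 with array weights and 11 of 22 without the dimmest 50% of genes, and 15 of 26 had an unadjusted p below 0.05. Leaving out 1 array gave 0 without any single wild-type array or replicate 2 of DA-Cat mice, 1 without replicate 3 of DA-Cat mice and 2 without replicate 1 of DA-Cat mice. Tubb3 and Gap43 lost their calls whichever array was left out, and Dpysl3 without any array except replicate 1 of DA-Cat mice (adjusted p 0.0529 to 0.192 where lost). Of 16 motor neuron genes, 1 rose (6.25%), the factor Lhx3 at 0.29 (adjusted p = 0.0114, and 0.0671 without replicate 2 of DA-Cat mice or 0.0901 on the mean of its 2 probe sets). Arc, an activity-induced synaptic gene, fell by 0.49 and lost its call without replicate 1 of wild type or replicate 1 or 2 of DA-Cat mice (adjusted p 0.05 to 0.0737).

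In vessels, 3 of 30 endothelial and pericyte genes rose and 1 fell, which is 13.3% called against 3.12% over all genes. All of the risers, Lef1, Tnfrsf19 and Apcdd1, are also on the Wnt feedback list. Mfsd2a, a lipid transporter of the blood-brain barrier, fell by 0.50 (adjusted p = 0.00856, and 0.0508 without replicate 2 of DA-Cat mice). In the meninges and fibroblast list 1 of 22 rose (4.55%), fibulin 1, Fbln1, at 0.73 ± 0.12 (SE, adjusted p = 0.00533). The 3 probe sets of Fbln1 ranged from -0.26 to 0.73, and their mean gave 0.35. The list median was 0.24, and it was 0.09 without replicate 1 of wild type and 0.13 without replicate 2 of DA-Cat mice. Of 10 lumbosacral Hox genes, which mark position along the cord, 0 were called in limma (4 at an unadjusted p below 0.05). Their mean level was 6.45, 6.48 and 6.29 in wild type and 6.65, 6.81 and 6.60 in DA-Cat mice, with a median difference of 0.31. The part of cord level in the other differences was not tested.

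**Figure D4:**
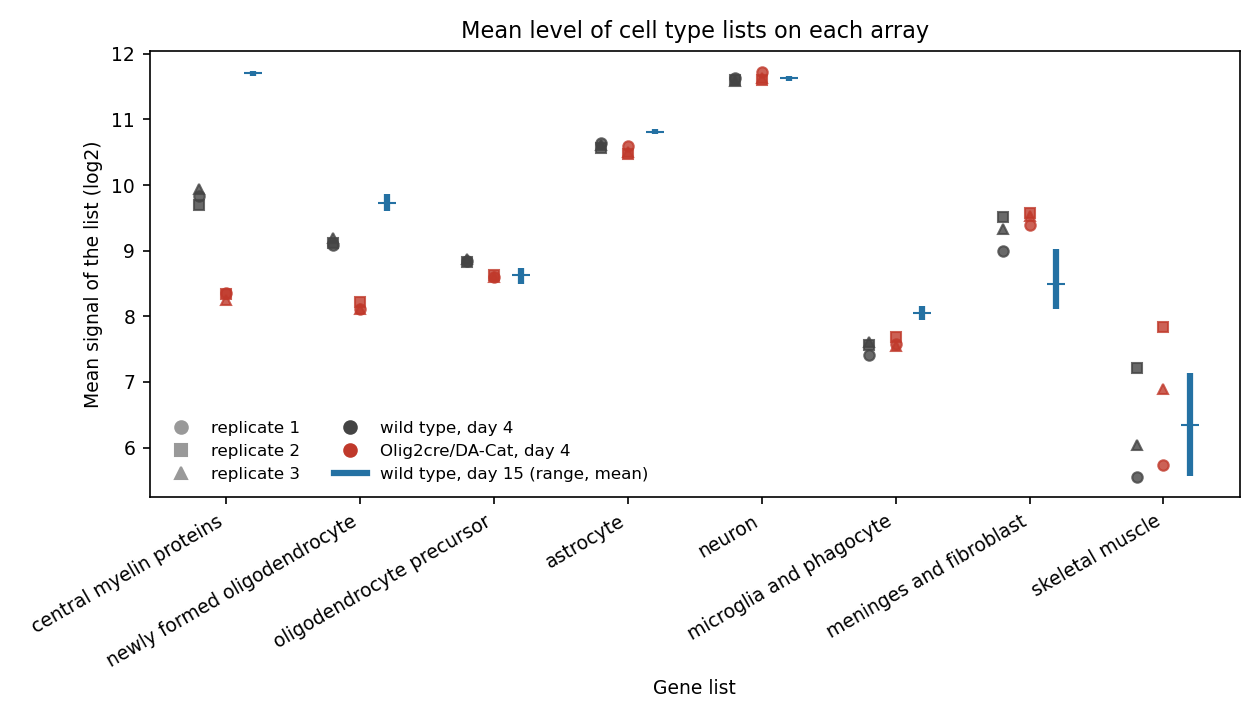
Mean log2 signal of 8 cell type lists on each day 4 array, wild type in grey and Olig2cre/DA-Cat in red with 1 symbol per replicate, and the range and mean of the 3 wild-type arrays of day 15 in blue. Central myelin proteins were at 9.69 to 9.94 in wild type and 8.25 to 8.36 in Olig2cre/DA-Cat at day 4, and at 11.65 to 11.74 in wild type at day 15.

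The genotype effect was compared between the days by the difference of the 2 effects in the same limma fit, which called 64 genes (0.352%). At day 15, 533 genes were called (2.93%). Of the genes called at day 4, 153 were also lower and 27 also higher at day 15, and 3 were called in the opposite direction. Among myelin proteins the effect differed between days for 15 of 36 genes, and 24 of the 36 were called lower at day 15, against 29 at day 4. Mbp differed by -0.04 at day 15, at 14.66 ± 0.02 in wild type and 14.62 ± 0.03 in DA-Cat mice (SD, n = 3), so its day 15 effect was higher by 1.65 (adjusted p = 4.15e-06 for the difference between days). These values lie close to the top of the array scale. Mobp was at 13.86 ± 0.09 and 13.34 ± 0.12 at day 15 (SD, n = 3), a difference of -0.52 against -3.02 at day 4 (adjusted p = 1.41e-06 for the difference between days).

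Rises of 2 Wnt feedback genes, Nkd1 and Sp5, differed between the days. Nkd1 differed by 2.15 at day 4 and by 0.30 at day 15, and these effects differed (adjusted p = 0.000935). Sp5 likewise went from 1.35 to 0.17 (adjusted p = 0.0186 for the difference). Wif1 was at 2.83 and 2.85, and Cxcr4 at 1.14 and 1.58, with adjusted p of 0.987 and 0.371 for the difference between days. Prss56 was higher on both days, by 3.54 and 1.86 (adjusted p = 0.00796 for the difference). Pld6 was higher by 0.63 at day 4 and lower at day 15, at -0.35 (adjusted p = 0.00202 for the difference).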

How the data were processed

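Log2 signals, 1 per probe set and array, were used as deposited by the authors. The log2 scale was read from their range. Background correction, summarisation and normalization are not given in the sources used here, and no scanner file, scan date or batch label was used. Of 45101 probe sets, 34958 had 1 gene symbol, 932 several and 9211 none. The probe set with the highest mean was kept for each of 18194 genes. All 12 arrays were fitted with 1 mean per group in limma 3.58.1 (R 4.3.3; lmFit, contrasts.fit, eBayes; 8 residual degrees of freedom), two-sided with Benjamini-Hochberg adjustment over all genes at 0.05. On simulated arrays the day 4 contrast over 18194 genes recovered 74% of 100 changes of 0.5 log2 and 95% of 100 changes of 1 log2, with 6 false calls. The simulated noise was normal, with each gene's fitted spread, and independent between genes. Deviations shared by the genes of an array were not simulated, so these shares do not give the recovery in the real arrays. Precision is limited by the number of arrays.

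The members and the 36 gene lists were chosen with earlier results of these data known, so list counts carry no test of their own. Named genes were a panel, the 15 highest and 15 lowest differences called without overlap, up to 4 members with the smallest p and the brightest member of each list, the 12 higher and 12 lower genes on no list with the smallest p among those called without overlap and with a higher group mean of at least 7, and the 6 genes with the smallest p for the difference between days. Sex-linked genes and clone names were left out of the naming. A panel member without a named probe set was not analysed here. Alternatives were the day 4 arrays alone, trend and robust eBayes, quantile normalization, median centring, filters on dim genes, array weights, the mean of a gene's probe sets, a replicate block, covariates for muscle level and Eif2s3y, and each day 4 array left out.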

Additional observations from a re-analysis of the deposited data

Results flagged for a closer look

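The genotype effect of 33 named genes differed between day 15 and day 4 in the limma test of that difference, given here as the day 15 effect minus the day 4 effect in log2. Of these, 28 were positive and 5 negative, but the genes were named mostly for their day 4 differences and 6 for this very test. Over all 64 genes whose effect differed, 35 were positive and 29 negative. Among myelin proteins and lipid enzymes they were Mog at 2.61, Mobp at 2.50, Ermn at 2.45, Tmem88b at 2.01, Ugt8a at 1.97, Cldn11 at 1.96, Mag at 1.95, Adamts4 at 1.88, Nipal4 at 1.87, Mal at 1.76, Mbp at 1.65, Fa2h at 1.55 and Hapln2 at 0.67. Each of these was lower in Olig2cre/DA-Cat at day 4 and had a smaller measured difference at day 15, where both genotypes of Mbp lay near the top of the array scale. Among genes of newly formed oligodendrocytes and others that fell at day 4 they were Tmem125 at 1.73, Cnksr3 at 1.55, Enpp6 at 1.54, Sema4d at 1.36, Bcas1 at 1.35, Pllp at 1.22, Nfasc at 1.17, Sirt2 at 1.17, Srpk3 at 1.09, Mob3b at 1.06, Cdk18 at 0.94, Tnr at 0.76, Sox2ot at 0.75, Tns3 at 0.67 and Slc44a1 at 0.60. Among genes that rose at day 4 they were Nkd1 at -1.85, Prss56 at -1.68, Sp5 at -1.18, Pld6 at -0.97 and Hmga2 at -0.57.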

How the results depend on the processing

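Of 96 named genes called at day 4, 71 were tested in all 17 alternatives and 54 of these were called in each. Filters on dim genes removed the other 25 at least once, and 17 of those were called wherever tested. With each day 4 array left out in turn 74 of the 96 were called. Leaving out 1 array gave 260 to 671 genes called, with 52 to 349 higher and 203 to 322 lower. Calls rose to 853 without the dimmest 30% of genes, 1009 without the dimmest 50% and 2164 with array weights. The genes called higher numbered 437 with trend and robust eBayes, 129 with quantile normalization, 117 with arrays centred on their medians, 464 and 618 without the dimmest 30% and 50%, and 1327 with array weights. The split thus moved from 237 higher and 330 lower to 129 and 385 under quantile normalization and to 117 and 398 under centring. Genes called lower numbered 837 with array weights. Effects that differed between days numbered 108 with trend and robust eBayes, 117 without the dimmest 50% and 118 with array weights. Of the Wnt feedback genes 5 rose without the dimmest 50%, which removes dim members. The cause of the other shifts was not tested.

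Deviations from the group means correlated at 0.263, 0.297 and 0.031 between same-numbered arrays of the genotypes. Between differently numbered arrays they correlated at -0.307 to 0.050. Whether replicate numbers pair the arrays was not tested, and the main fit did not pair them. With the replicate block 400 genes were called, 137 higher and 263 lower.

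Differences near 0 of genes that were not called changed sign. With the mean of probe sets Ctnnb1 was at 0.022, Id2 at -0.181, Ptch1 at 0.0166, Tpx2 at 0.0469, Ncam1 at -0.0094, Gria2 at -0.0105 and Hspa5 at -0.0677. With quantile normalization Id2 was at -0.0424, Aldoc at 0.006, Cox6a1 at 0.0372 and Tmsb10 at 0.0000, and with centred arrays Id2 was at -0.036. With 1 array left out, Id2 ranged from -0.0382 to 0.0858, Ptch1 from -0.0544 to 0.0256, Aldoc from -0.0288 to 0.0171, Nefl from -0.0991 to 0.0086, Ptgds from -0.24 to 0.1161 and Ifitm3 from -0.0811 to 0.2108.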
